A study of Mus musculus with 6 samples.

Results

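Cytochrome P450 genes outside the Cyp2c cluster were followed in RNA sequencing libraries of mouse liver. Members were all rows of the deposited gene count table whose symbol follows the P450 naming pattern (Cyp, a family number, a subfamily letter, a gene number and at most 1 further letter), leaving out the 15 Cyp2c rows and the bile acid enzymes Cyp7a1, Cyp7b1, Cyp8b1 and Cyp27a1. That left 67 of the 16603 genes in the table, of which 3 were in the Cyp1 family, 28 in Cyp2, 8 in Cyp3 and 17 in Cyp4. The rule used names and no measured value. Livers labelled WT (3 libraries) were compared with livers labelled Mdr2 knockout (3 libraries). Mdr2 is the older name of Abcb4, the hepatocyte pump that puts phosphatidylcholine into bile, and mice without it develop chronic cholangitis and fibrosis. Strain, age, sex, the allele and the separate origin of the 3 samples in a group are not given in the labels, so p-values measure no more than the spread of these samples, part of which may be technical. By its title, the series concerns liver progenitor cells, ductular reaction, fibrosis and hedgehog signalling.

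Cytochrome P450 enzymes are haem proteins, most of them anchored in the endoplasmic reticulum, which put an oxygen atom into their substrate with electrons passed on by the reductase Por. In hepatocytes, enzymes of the Cyp1, Cyp2 and Cyp3 families oxidise drugs, toxins and steroids, and those of Cyp4 mainly hydroxylate fatty acids and eicosanoids. Their transcription is set in large part by ligand-activated receptors: AhR for Cyp1a, the constitutive androstane receptor CAR (Nr1i3) for Cyp2b, the pregnane X receptor PXR (Nr1i2) for Cyp3a and PPARalpha for Cyp4a. Many are zoned along the liver lobule, with Cyp2e1 and Cyp1a2 around the central vein and Cyp2f2 around the portal tract, and several differ between male and female mice.

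The 6 libraries held 17100393 to 18124467 counts. The table's columns carry the letters M and N, of which M was read as Mdr2 knockout and N, by elimination, as wild-type, so every direction rests on that reading. Raw counts of Abcb4 were 5190, 5776 and 4330 in wild-type replicates 1, 2 and 3 and 10071, 10188 and 8347 in Mdr2-knockout replicates 1, 2 and 3. The gene named by the label was thus higher in the libraries labelled knockout (log2 fold change 0.57, edgeR adjusted p = 0.00389). Which part of the gene the allele removes is not stated and the count covers all of it, so this count does not check the genotype. Groups are called by their labels throughout. Y-linked genes were read in all 6 libraries, with Ddx3y between 63.6 and 77.1 CPM. Levels in CPM are counts relative to library size, scaled here by the trimmed mean of M-values (TMM).

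P450 genes changed in both directions, and the 2 most abundant members per length moved in opposite directions. Cyp2e1 fell 2.92-fold and Cyp3a11 rose 2.41-fold in the labelled Mdr2-knockout libraries. Of the 67 members, 49 passed the filter on low counts and were tested. At an adjusted p under 0.05 by edgeR's quasi-likelihood test, 16 were lower, 8 were higher and the other 25 missed the threshold. The 16 lower members were 32.7% of those tested, beside 16.3% of all 12612 tested genes called lower, and the 8 higher members were 16.3%, beside 20.9% called higher. In either direction 49.0% of tested members and 37.1% of all tested genes were called. The groups did not overlap for 30 of the 49 tested members, beside 51.3% of all tested genes. The median log2 fold change was -0.29 over the tested members and 0.01 over all tested genes. Of the 49 tested members, 5 were called higher at least 2-fold (Cyp1b1, Cyp2s1, Cyp3a11, Cyp4f16 and Cyp4f18), beside 11.1% of all tested genes. Another 5 were called lower at least 2-fold (Cyp2b10, Cyp2d26, Cyp2d40, Cyp2e1 and Cyp46a1), beside 0.753%. Cyp2s1, also among the 8 higher members, reached the filter level in the labelled Mdr2-knockout libraries only. It could therefore enter the test only by being higher there.

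**Figure D1:**
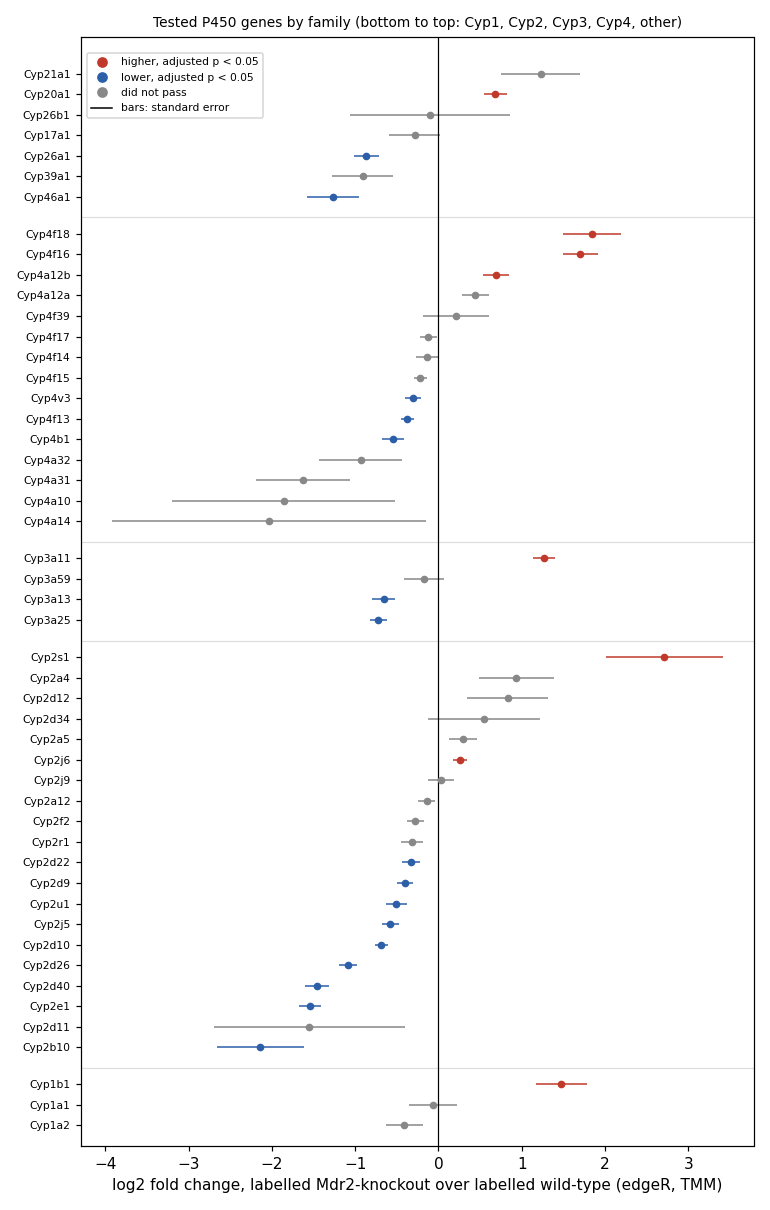
Each point is the log2 fold change of a tested P450 gene (labelled Mdr2-knockout over labelled wild-type, TMM scaling), with its standard error as a bar, ordered within each family. Cyp3a11, at 1.27, stands above the other Cyp3 genes, and the Cyp4a10 and Cyp4a14 bars are wide.

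The balance of directions depended on how libraries were scaled. Scaling by total counts instead of TMM shifted the median over all tested genes by 0.29 on the log2 scale. Under it, 12 members were higher and 10 lower, that is 24.5% and 20.4% of those tested, beside 47.1% and 2.62% of all tested genes. Each of the 8 higher members and 10 of the 16 lower members passed in the same direction under both scalings. The 6 lower members whose call was lost with total counts were Cyp2d9, Cyp2d22, Cyp2u1, Cyp4b1, Cyp4f13 and Cyp4v3, with TMM log2 fold changes between -0.54 and -0.31. With total counts 49.7% of all tested genes were called in either direction. Of the 25 members that did not pass, 9 changed sign between the scalings. The values that follow use TMM unless total counts are named, and FPKM (the authors' values, scaled by gene length and library total) follow total counts.

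DESeq2 gave 9 higher and 19 lower members among 54 tested, beside 16.7% and 13.4% of all genes tested. Limma-voom gave 8 higher and 17 lower members, beside 20.7% and 16.4% of all genes tested. RLE factors gave 8 higher and 18 lower members, beside 20.4% and 17.3% of all genes tested, and upper-quartile factors gave 9 higher and 14 lower members, beside 23.3% and 11.4% of all genes tested. Testing without the low-count filter gave 8 higher and 18 lower members among 65 tested, beside 17.3% and 13.3% of all genes tested. A filter at 1 CPM gave 7 higher and 16 lower members among 45 tested, beside 20.7% and 15.9% of all genes tested. A replicate block gave 7 higher and 17 lower members, beside 20.4% and 15.8% of all genes tested. Limma-voom, RLE factors, upper-quartile factors and the replicate block each tested 49 members. With wild-type replicate 1, 2 or 3 left out, 7, 7 and 9 members were higher, beside 17%, 16.2% and 20.1% of all genes tested. With wild-type replicate 1, 2 or 3 left out, 14, 13 and 16 members were lower, beside 12.5%, 11.2% and 15.5% of all genes tested. These fits tested 50, 51 and 51 members. With Mdr2-knockout replicate 1, 2 or 3 left out, 7, 10 and 8 members were higher, beside 17.1%, 17.4% and 18.7% of all genes tested. With Mdr2-knockout replicate 1, 2 or 3 left out, 16, 15 and 16 members were lower, beside 12.2%, 12% and 13.5% of all genes tested. Members tested in these fits numbered 49, 51 and 50.

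**Figure D2:**
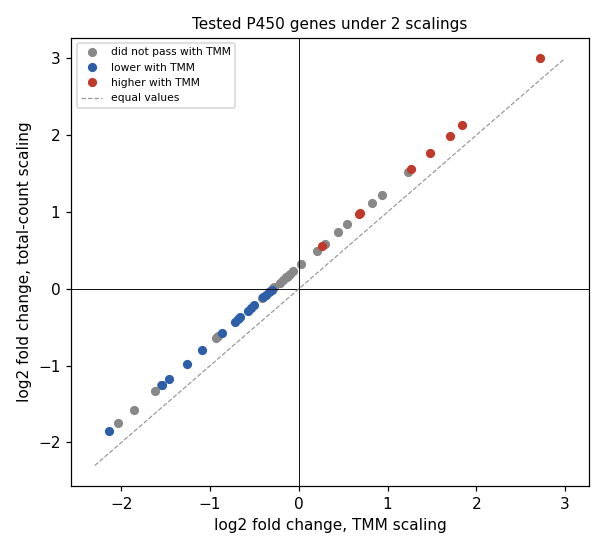
Each point is a tested P450 gene, with its log2 fold change under TMM scaling on the x axis and under total-count scaling on the y axis. All points lie above the dashed line of equal values by close to 0.29, and the points left of 0 and above it are genes whose direction depends on the scaling.

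Summed levels of the Cyp2 and Cyp3 families differed between the groups in opposite directions. Summed FPKM of the Cyp2 members was 9234, 8540 and 8099 in wild-type replicates 1, 2 and 3 and 5728, 4764 and 5698 in Mdr2-knockout replicates 1, 2 and 3. For Cyp3 the sums were 1285, 1597 and 1437 against 3169, 3886 and 2968. Neither sum overlapped between the groups. Summed Cyp4 levels overlapped widely (510 to 1236 against 466 to 867), as did those of Cyp1 (195 to 294 against 162 to 262). All members together held 1.99% to 2.33% of a labelled wild-type library's counts, and 1.87% to 1.93% of a labelled Mdr2-knockout library's. Cyp2e1 alone made up 43.5% of the members' summed FPKM in the former and 21.2% in the latter. The difference between families was not tested, since a family's genes are not replicates.

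**Figure D3:**
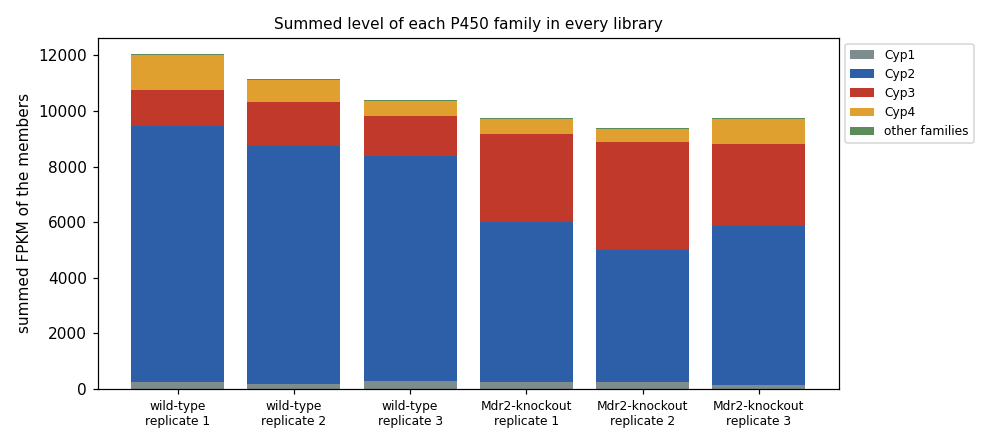
Bars give the summed FPKM of the P450 members in each of the 6 libraries, stacked by family. The Cyp2 part shrinks and the Cyp3 part grows from the labelled wild-type to the labelled Mdr2-knockout bars, and the total lies between 9404 and 12030.

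The Cyp1 family holds enzymes that oxidise aromatic compounds. Cyp1a2, the main hepatic Cyp1 enzyme, which also demethylates caffeine, was at 492, 415 and 616 CPM in the wild-type libraries 1, 2 and 3 and at 443, 427 and 275 CPM in the Mdr2-knockout libraries 1, 2 and 3. The groups overlapped, and the difference did not pass (-0.41 ± 0.22 SE on the log2 scale, edgeR adjusted p = 0.196). Cyp1a1, its neighbour on chromosome 9 and the classical AhR-induced gene, stood near the bottom of the range, at 1.28 to 1.83 and 1.16 to 1.79 CPM (-0.06, edgeR adjusted p = 0.885, positive with total counts). Of 5 other AhR targets, 3 were tested and 0 of them passed by edgeR or DESeq2, beside 37.1% of all tested genes by edgeR. Nqo1 did with total counts and was the 1 with an unadjusted p under 0.05 (edgeR). Cyp1b1, known mainly from cells other than hepatocytes, was at 0.763, 1.02 and 1.89 CPM against 3.08, 3.78 and 3.43 CPM. It rose, with every labelled Mdr2-knockout library above every labelled wild-type one (1.48, SE 0.31, edgeR adjusted p = 0.00459). Thus 1 of 3 Cyp1 members was higher and 0 were lower, beside 20.9% and 16.3% of all tested genes. The median log2 fold change of the Cyp1 members was -0.06.

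Of 28 Cyp2 members, 20 were tested, 9 were lower, 2 were higher and the other 9 missed the threshold. Of all tested genes, 16.3% were lower and 20.9% higher. The median log2 fold change of the Cyp2 members was -0.33 (-0.03 with total counts). Cyp2e1, which oxidises ethanol, acetone and paracetamol, was the most abundant member per length at a mean of 3456 FPKM. It lies on chromosome 7 from 140763739 to 140774987 (GRCm38). Its level was 10144, 9408 and 8932 CPM in wild-type replicates 1, 2 and 3 and 3478, 2562 and 3711 CPM in Mdr2-knockout replicates 1, 2 and 3. The groups did not overlap. The log2 fold change was -1.55 (SE 0.13, edgeR adjusted p = 4.35e-05), and between -1.65 and -1.41 with any 1 library left out.

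The Cyp2d genes, close relatives of the human drug-metabolising gene CYP2D6, lie side by side on chromosome 15 between 82370527 and 82794294 (GRCm38). All 8 were tested, 5 were lower and 0 higher, beside 16.3% and 20.9% of all tested genes. Cyp2d26 fell from 1324, 1209 and 1128 CPM to 561, 512 and 648 CPM (-1.09 on the log2 scale, SE 0.11, edgeR adjusted p = 6.14e-05). Cyp2d40 fell from 67.3, 58.5 and 84.1 CPM to 28.2, 22.1 and 25.8 CPM (-1.46, SE 0.15). Cyp2d10 was nearly the same in all libraries of a group, at 1080, 1084 and 1025 CPM against 668, 663 and 651 CPM (-0.69, SE 0.08). These 3 genes passed in the same direction with total counts. Cyp2d9, the most abundant of the subfamily at a mean of 1034 FPKM, was at 2107, 1985 and 1793 CPM against 1642, 1381 and 1432 CPM. Its call (-0.40, edgeR adjusted p = 0.00976) was lost with total counts (-0.11, adjusted p = 0.399). Cyp2d22 was lower by 0.33 on the log2 scale, a call lost with total counts and upper-quartile factors, without wild-type replicate 1 or 2 and without Mdr2-knockout replicate 2 or 3 (edgeR adjusted p of 0.0508 to 0.109 in these 4 fits). Cyp2d11, Cyp2d12 and Cyp2d34 were scarce and did not pass, though Cyp2d34 passed as higher without Mdr2-knockout replicate 3 (1.02, edgeR adjusted p = 0.0319). Cyp2d11 reached 10.5 CPM in wild-type replicate 2 and 0.757 to 2.47 CPM in the other 5 libraries, and its log2 fold change was 0.28 without that library, in place of -1.55.

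Cyp2b10 is the gene by which CAR activation is usually read. It was at 8.07, 10.2 and 12.1 CPM in the wild-type libraries 1, 2 and 3 and at 0.992, 4.43 and 1.46 CPM in the Mdr2-knockout libraries 1, 2 and 3. It was lower in each of the latter (-2.14 ± 0.52 SE on the log2 scale, edgeR adjusted p = 0.0243), but the 3 knockout values spread 4.47-fold. The call was lost without wild-type replicate 1, 2 or 3 (edgeR adjusted p = 0.0509, 0.0652 and 0.0692) and without Mdr2-knockout replicate 3 (0.072). Nr1i3, which encodes CAR, fell as well, from 371, 325 and 176 CPM to 122, 106 and 116 CPM (-1.34, SE 0.29, edgeR adjusted p = 0.0196). Nr1i2, which encodes PXR, was at 86.6, 90.7 and 102 CPM against 65.1, 91.8 and 92.2 CPM and did not pass (-0.16, edgeR adjusted p = 0.384).

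In the Cyp2a subfamily 0 of 3 tested members passed by edgeR or DESeq2, beside 37.1% of all tested genes by edgeR. Of the 3, 0 had an unadjusted p under 0.05 (edgeR). Cyp2a5, the mouse coumarin hydroxylase, was at 271, 249 and 376 CPM against 349, 424 and 324 CPM (0.29 ± 0.17 SE on the log2 scale, edgeR adjusted p = 0.211). The groups overlapped through wild-type replicate 3, and without that library it passed as higher (0.48, edgeR adjusted p = 0.0123), as it did with total counts (0.58, adjusted p = 0.0193). Cyp2a12, a steroid hydroxylase, was at 470 to 553 CPM against 413 to 498 CPM (-0.14), and its sign turned with total counts. Cyp2a4, a steroid hydroxylase found mainly in females, was at 0.191, 0.319 and 0.379 CPM against 0.595, 0.604 and 0.520 CPM (0.94, SE 0.45, edgeR adjusted p = 0.125). Cyp2a4 shared 36.1% of its 50-base runs with the far more abundant Cyp2a5, so the split of reads between them is uncertain.

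Cyp2f2, which activates naphthalene and marks periportal hepatocytes, was at 1384, 1713 and 1359 CPM against 1271, 1174 and 1231 CPM. The groups did not overlap, yet the difference missed the threshold (-0.28 ± 0.10 SE on the log2 scale, edgeR adjusted p = 0.056) and was 0.02 with total counts. It passed as lower with DESeq2 (adjusted p = 0.0238), with RLE factors (0.0498), without the low-count filter (0.0345) and without wild-type replicate 3 (0.0276). The arachidonic acid epoxygenase genes Cyp2j5 and Cyp2j6 lie in 1 cluster on chromosome 4 and were called in opposite directions. Cyp2j5 was lower at 768, 706 and 698 against 510, 424 and 523 CPM (-0.58, SE 0.10, edgeR adjusted p = 0.00148). Cyp2j6 was higher at 83.5, 82.8 and 73.4 against 100, 85.0 and 101 CPM (0.26, SE 0.09, edgeR adjusted p = 0.0388), a call lost with DESeq2 (adjusted p = 0.086) and without any 1 library other than Mdr2-knockout replicate 2 (0.0633 to 0.128). Cyp2u1, a fatty acid hydroxylase, was lower at 13.4, 13 and 16.5 against 10.8, 9.92 and 9.46 CPM (-0.50, SE 0.12, edgeR adjusted p = 0.0102), a call lost with total counts. The vitamin D 25-hydroxylase gene Cyp2r1 (-0.32) and Cyp2j9 (0.03) did not pass. Cyp2s1, known from epithelia, was higher at a log2 fold change of 2.71, with 0, 6 and 1 counts against 26, 13 and 21. It and Cyp2a4 reached the filter level in the libraries of 1 group only.

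The Cyp3 family in mouse is Cyp3a, whose enzymes hydroxylate steroids, bile acids and a large share of drugs. Of 8 members, 4 were tested, 1 was higher, 2 were lower and 1 did not pass. Of all tested genes, 20.9% were higher and 16.3% lower. The 1 Cyp3 member that rose was the most abundant. Cyp3a11, the main hepatic Cyp3a enzyme and a PXR target, was at 2025, 2685 and 2305 CPM in wild-type replicates 1, 2 and 3 and at 5247, 6650 and 4985 CPM in Mdr2-knockout replicates 1, 2 and 3. Every labelled knockout library lay above every wild-type one (1.27 ± 0.14 SE on the log2 scale, edgeR adjusted p = 0.000153), and the value lay between 1.13 and 1.37 with any 1 library left out. Its share of the summed Cyp3 FPKM went from 71.4% to 90.7%, and in the labelled Mdr2-knockout libraries its mean of 3030 FPKM stood above the 2042 FPKM of Cyp2e1, whereas in the labelled wild-type it was 1027 against 4869. Cyp3a25, in the same cluster on chromosome 5, went the other way, from 694, 822 and 770 CPM to 494, 485 and 405 CPM (-0.72, SE 0.10, edgeR adjusted p = 0.000554). Cyp3a13, which lies apart from that cluster on the same chromosome, fell from 323, 401 and 460 CPM to 224, 288 and 239 CPM (-0.66, SE 0.14, edgeR adjusted p = 0.00655). Both passed as lower with total counts too. Cyp3a59 was at 13, 13.7 and 15.3 against 13.2, 16.3 and 7.85 CPM and did not pass (-0.17, edgeR adjusted p = 0.617).

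Sequence before the start of 3 members is shown so that their receptor motifs can be compared: Cyp3a11, the abundant member that rose, Cyp2b10, by which CAR activity is read, and Cyp2e1, the abundant member that fell. The windows searched were the 250 bases before the RefSeq start (GRCm38.p6), and RefSeq promoters were matched for 51 of the 67 members. Each is printed 5′ to 3′ on the gene's strand, up to the base where the first GENCODE M21 exon begins, which lies 110, 38 and 80 bases short of the RefSeq start in the order given. Capitals mark matches, on either strand, to the nuclear receptor hexamers AGGTCA and AGTTCA, the forkhead motif TGTTTNC, the HNF1 core GTTAAT, the TATA motif TATAAA and the AhR core GCGTG, none of which overlap here.
Cyp3a11: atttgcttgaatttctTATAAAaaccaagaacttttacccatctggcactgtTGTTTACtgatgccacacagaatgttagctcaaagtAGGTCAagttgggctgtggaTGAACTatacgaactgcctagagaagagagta
Cyp2b10: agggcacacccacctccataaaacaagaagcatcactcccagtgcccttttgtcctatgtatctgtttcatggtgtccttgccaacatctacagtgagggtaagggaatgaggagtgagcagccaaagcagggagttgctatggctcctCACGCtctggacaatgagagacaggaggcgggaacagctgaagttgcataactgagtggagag
Cyp2e1: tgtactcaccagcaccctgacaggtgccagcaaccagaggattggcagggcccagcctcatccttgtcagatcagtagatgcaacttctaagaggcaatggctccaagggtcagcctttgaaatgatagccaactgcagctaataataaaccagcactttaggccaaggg
These stretches are chr5:145879965-145880104 (minus strand), chr7:25897408-25897619 (plus strand) and chr7:140763569-140763738 (plus strand). Counting back from the RefSeq start, the Cyp3a11 window held AGGTCA on the gene's strand at position -162 and AGTTCA on the other strand at -142, and also TGTTTNC at -198 and TATAAA at -234. The Cyp2b10 window held GCGTG on the other strand at -101 and, past the printed stretch, on the gene's strand at -9. In the Cyp2e1 window the 1 match was TATAAA at -31, also past the printed stretch. Over all 32536 distinct RefSeq promoter windows of this length searched, AGGTCA was found in 14.0%, AGTTCA in 11.8%, TGTTTNC in 17.8%, GTTAAT in 6.47%, TATAAA in 12.3% and GCGTG in 28.3%. Among the 51 matched members, 19 held TATAAA (37.3%), 10 AGGTCA (19.6%), 10 TGTTTNC (19.6%), 7 AGTTCA (13.7%), 5 GTTAAT (9.80%) and 12 GCGTG (23.5%). A member was counted when any of its windows held the motif, whereas the shares over all windows are per window. Members with several windows can raise the member share, so the shares are not directly comparable. A match to these letters is a description of the window and does not show binding. Sequence farther upstream was not searched, so a window without a match does not show that the gene lacks such sites.

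Of 17 Cyp4 members, 15 were tested, 3 were lower, 3 were higher and the other 9 missed the threshold. Of those tested, 40% were called in either direction, near the 37.1% of all tested genes. The median log2 fold change of the Cyp4 members was -0.22 (0.08 with total counts). The Cyp4a enzymes hydroxylate the far end of fatty acids, and their genes lie together on chromosome 4. Cyp4a14 had the widest spread within a group. Its level was 1036, 380 and 81.7 CPM in wild-type replicates 1, 2 and 3 and 13.5, 8.91 and 344 CPM in Mdr2-knockout replicates 1, 2 and 3, a 12.7-fold and a 38.6-fold range. Cyp4a10, highest and lowest in the same libraries, was at 1089, 532 and 170 CPM against 52.3, 35.5 and 406 CPM. Neither passed (log2 fold changes -2.03 and -1.86, edgeR adjusted p = 0.461 and 0.345). Without Mdr2-knockout replicate 3 the log2 fold changes were -5.48 and -3.77, which did not pass either (edgeR adjusted p = 0.0954 and 0.0929). Cyp4a31 and Cyp4a32, at no more than 36.3 CPM, also had their highest knockout level in replicate 3, and without that library both were called lower (-2.41, adjusted p = 0.00276, and -1.54, adjusted p = 0.0118, by edgeR). With all libraries they did not pass (-1.62 and -0.94, edgeR adjusted p = 0.0788 and 0.218), though Cyp4a31 did with DESeq2 (adjusted p = 0.0359).

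Other targets of PPARalpha, the receptor that fasting and fatty acids activate, were highest in the same libraries. Acot1, a fatty acyl-CoA thioesterase gene, was at 35.6, 20.3 and 12.4 CPM against 3.57, 4.33 and 15.7 CPM. The fatty acid carrier gene Fabp1 was at 1277, 768 and 768 CPM against 486, 319 and 715 CPM. Of 11 tested PPARalpha targets outside the P450 genes, 8 were highest in wild-type replicate 1 and in Mdr2-knockout replicate 3 of their groups, and so were 4 of the 6 Cyp4a genes, beside 12.0% of all tested genes. The 4 were Cyp4a10, Cyp4a14, Cyp4a12a and Cyp4a12b. Wild-type replicates 1 and 2 were close in Cyp4a12a (161 and 157 CPM) and Cyp4a12b (83.7 and 83.5 CPM), so their order rests on small differences. Cyp4a31 and Cyp4a32 were highest in wild-type replicate 2 instead. This order was looked for after the Cyp4a values were seen, and feeding state or time of sampling is not given in the labels. Pdk4, which encodes a kinase that restrains pyruvate oxidation, was higher (1.3, edgeR adjusted p = 0.0026). Ppara itself was lower, from 315, 272 and 222 CPM to 154, 121 and 197 CPM (-0.78, SE 0.20, edgeR adjusted p = 0.0264).

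**Figure D4:**
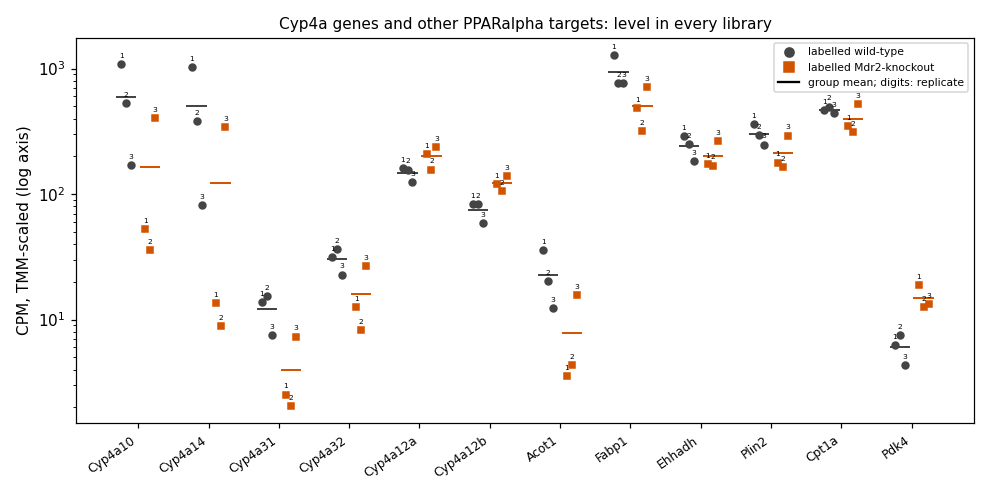
Points give the TMM-scaled CPM (log axis) of the 6 Cyp4a genes and of 6 other PPARalpha targets in every library, with replicate numbers and group means as lines. In Cyp4a10, Cyp4a14, Acot1 and Fabp1, Mdr2-knockout replicate 3 stands above the other 2 libraries of its group and wild-type replicate 1 is the highest.

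Cyp4a12a and Cyp4a12b, arachidonic acid hydroxylases found mainly in males, had a narrow spread within each group, at most 1.5-fold. Cyp4a12b was higher, at 83.7, 83.5 and 58.9 CPM against 120, 106 and 139 CPM (0.69 ± 0.16 SE on the log2 scale, edgeR adjusted p = 0.0133), a call lost with a replicate block (adjusted p = 0.0644). Cyp4a12a was at 161, 157 and 124 CPM against 208, 157 and 236 CPM and did not pass (0.44, SE 0.16, edgeR adjusted p = 0.0703), though it did with DESeq2 (adjusted p = 0.026), upper-quartile factors (0.0472) and total counts (0.00862) and without Mdr2-knockout replicate 2 (0.00867). Cyp4a12b shared 49.4% of its 50-base runs with Cyp4a12a, so the split of reads between them is uncertain. Among the Cyp4f genes, which inactivate leukotrienes and hydroxylate long fatty acids, 1 was lower, 2 were higher and the other 4 missed the threshold. Called in either direction were 42.9% of the tested Cyp4f genes, beside 37.1% of all tested genes. Cyp4f15 (73.0 FPKM) had a log2 fold change of -0.22 and Cyp4f14 (50.6 FPKM) of -0.14, neither of which passed, and both turned positive with total counts. Cyp4f15 missed the threshold narrowly (edgeR adjusted p = 0.0512) and passed as lower with DESeq2 (adjusted p = 0.0367), RLE factors (0.0421), limma-voom (0.0451), no low-count filter (0.0418) and without Mdr2-knockout replicate 3 (0.0303). Cyp4f13 (35.5 FPKM) was lower by 0.37, a call lost with total counts. The scarce members Cyp4f16 and Cyp4f18 rose. Cyp4f16 went from 1.78, 1.66 and 2.71 CPM to 7.09, 6.55 and 6.44 CPM (1.70, SE 0.21, edgeR adjusted p = 0.000242). Cyp4f18, which is read in neutrophils and other leukocytes and lies apart on chromosome 8, went from 0.381, 0.830 and 0.883 CPM to 2.33, 2.06 and 3.17 CPM (1.84, SE 0.35, edgeR adjusted p = 0.00271). Cyp4v3, a fatty acid hydroxylase at a mean of 168 FPKM, was at 534, 560 and 531 against 492, 407 and 414 CPM. It was called lower (-0.31, SE 0.09, edgeR adjusted p = 0.0255), but not with total counts or upper-quartile factors, nor without wild-type replicate 2 or Mdr2-knockout replicate 2 or 3 (0.0809 to 0.0857). Cyp4b1 was lower (-0.54), again not with total counts.

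Of the 11 members in other families, 7 were tested, 1 was higher and 2 were lower, beside 20.9% and 16.3% of all tested genes. Cyp26a1, which clears retinoic acid and is itself induced by it, fell from 27.7, 25.8 and 39.0 CPM to 15.4, 17.9 and 17.5 CPM (-0.87 ± 0.15 SE on the log2 scale, edgeR adjusted p = 0.00318). Cyp26b1, its relative, spread 14.7-fold within the labelled wild-type group, at 1.40, 8.43 and 20.5 CPM against 4.71, 13.2 and 10.4 CPM, and did not pass (-0.10, edgeR adjusted p = 0.949). Cyp39a1, the oxysterol hydroxylase with the highest level in these families, was at 44.2, 68.9 and 45.4 CPM against 17.7, 39.4 and 27.3 CPM. The groups did not overlap but the difference did not pass (-0.91, SE 0.36, edgeR adjusted p = 0.117). Cyp39a1 passed as lower without Mdr2-knockout replicate 2 (-1.24, edgeR adjusted p = 0.0454) and with a replicate block (-0.95, edgeR adjusted p = 0.000965). Cyp46a1, the cholesterol 24-hydroxylase best known from brain, fell from 1.72, 1.40 and 1.89 CPM to 0.546, 0.856 and 0.676 CPM (-1.26, SE 0.31, edgeR adjusted p = 0.0106). Cyp20a1, a member without a settled substrate, rose from 5.34, 6.0 and 6.31 CPM to 8.73, 9.11 and 10.5 CPM (0.68, SE 0.14, edgeR adjusted p = 0.00408). Cyp17a1, the steroid 17-hydroxylase, was at 8.77, 14.3 and 13.4 CPM against 6.10, 11.3 and 12.5 CPM and did not pass (-0.29, edgeR adjusted p = 0.5; 0.01 with total counts). Cyp21a1, the adrenal 21-hydroxylase, did not pass either (1.23, edgeR adjusted p = 0.0644), though it did without wild-type replicate 3 (1.73, edgeR adjusted p = 0.0316) and with total counts (0.0198). Of the adrenal markers, Cyp11b2 had no count in any library and Star did not pass (-0.30).

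**Figure D5:**
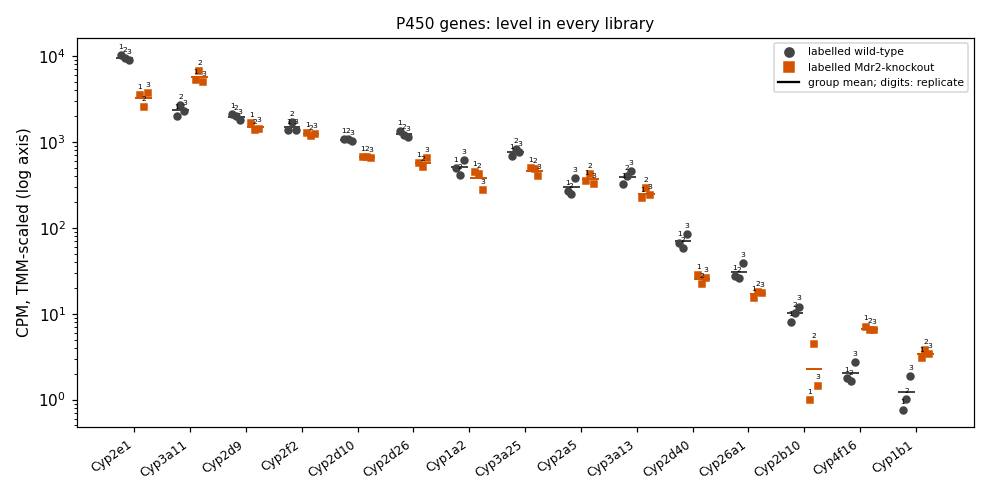
Points give the TMM-scaled CPM (log axis) of 15 P450 genes in each of the 6 libraries, with the replicate number beside each point and the group mean as a line. Cyp2e1, Cyp2d10, Cyp2d26, Cyp2d40 and Cyp2b10 separate downward and Cyp3a11, Cyp4f16 and Cyp1b1 upward, while Cyp1a2 and Cyp2a5 overlap.

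The 18 members that were not tested had at most 87 counts over the 6 libraries. Cyp2a22 had 14 counts over the wild-type group and 73 over the knockout group, a depth-adjusted ratio of 4.15 with an exact 95% counting interval of 2.32 to 7.97, but its knockout counts were 22, 4 and 47. Cyp27b1, the renal enzyme that activates vitamin D, had 0 counts against 11, and Cyp3a57 had 0 against 6. With 3 counts put in place of the wild-type 0, the depth-adjusted ratios were 2.92 and 1.59. These ratios take the knockout counts as exact, so they are not lower limits of the fold change. Cyp2g1 (19 and 26 counts), Cyp2j8 (6 and 11) and Cyp2ab1 (2 and 5) had ratios whose counting intervals included equality. The other 12 had at most 5 counts in all, Cyp2j11 and Cyp11b2 none.

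The sex-dependent members were read in livers with Y-linked transcripts. Of 4 members known to be higher in male mouse liver, Cyp4a12b was higher, Cyp2d9 and Cyp2u1 were lower and Cyp4a12a did not pass. Of 11 P450 genes known to be higher in females, 9 were in the table and 4 were tested (Cyp2a4, Cyp4a14, Cyp17a1 and Cyp39a1). Of these 4, 0 passed by edgeR or DESeq2 or had an unadjusted p under 0.05 (edgeR). By edgeR 37.1% of all tested genes passed. Cyp2a4 passed as higher with total counts (edgeR adjusted p = 0.0423). Cyp3a16, Cyp3a41b and Cyp3a44 had at most 3 counts in either group, and Cyp2b9 had 1 count over the 6 libraries. Of 11 tested pericentral genes, 3 were lower (Cyp2e1, Slco1b2 and Gulo) and 0 higher, beside 16.3% and 20.9% of all tested genes. With total counts 2 were lower and 4 higher, beside 2.62% and 47.1% of all tested genes. The median log2 fold change of the pericentral genes was -0.13. Glul, the glutamine synthetase gene of the innermost pericentral cells, was at 1146, 1104 and 1108 CPM against 1122, 1113 and 1153 CPM, and did not pass (0.01, edgeR adjusted p = 0.913). Of 8 tested periportal genes, 3 were lower (Hal, Gls2 and Pck1) and 0 higher, beside 16.3% and 20.9% of all tested genes. With total counts 0 were lower and 2 higher, beside 2.62% and 47.1% of all tested genes. The median log2 fold change of the periportal genes was -0.20.

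Of 7 electron transfer partners of the P450 enzymes, all tested, 0 passed by edgeR with TMM scaling, beside 37.1% of all tested genes. Their median log2 fold change was -0.16, 2 had an unadjusted p under 0.05 (edgeR) and 1 passed with DESeq2. With total counts 2 of them were higher and 0 lower, beside 47.1% and 2.62% of all tested genes. The reductase gene Por was at 318, 436 and 495 CPM against 202, 242 and 356 CPM (-0.64, SE 0.26, edgeR adjusted p = 0.11). Of 12 genes of haem synthesis and breakdown, 4 were lower and 0 higher, beside 16.3% and 20.9% of all tested genes. The lower ones were Blvrb (-0.48), Urod (-0.40), Fech (-0.41) and Cpox (-0.74), none of which passed with total counts. Under total counts 3 others were higher, beside 47.1% of all tested genes. Alas1, which sets the rate of haem synthesis, spread from 175 to 515 CPM and did not pass (-0.44, edgeR adjusted p = 0.553). Of 18 regulators, 16 were tested, 5 were lower and 1 was higher, beside 16.3% and 20.9% of all tested genes. The median log2 fold change of the regulators was -0.36. Besides Nr1i3 and Ppara, the lower ones were the hepatocyte factor genes Hnf4a (-0.60) and Cebpa (-0.53) and the receptor partner gene Rxra (-0.41). Of these 5, Nr1i3 alone passed with total counts. The higher one was Nfe2l2 (0.61, SE 0.09), the NRF2 gene, and Ahr did not pass (-0.05).

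Marker genes of several liver cell types also differed between the groups, and their part in the P450 results was not tested. By edgeR, 16.3% of all tested genes were lower and 20.9% higher. Of 16 tested hepatocyte markers, 11 were lower and 0 higher (median log2 fold change -0.42), with a summed level between 143648 and 151632 CPM in wild-type against 96262 to 102384 CPM in knockout libraries. With total counts 6 were lower and 2 higher, beside 2.62% and 47.1% of all tested genes. Of 10 cholangiocyte markers, all were higher (median 3.52, summed 42.5 to 58.9 against 348.8 to 385 CPM). Of 8 macrophage markers, 6 were higher and 0 lower (181 to 317 against 458 to 486 CPM), and of 8 stellate cell and fibroblast markers likewise 6 and 0 (232 to 353 against 529 to 644 CPM). Of 8 endothelial markers, 3 were higher and 2 lower (206 to 238 against 219 to 238 CPM). None of the markers in these 5 lists was at 0 in all libraries. In bulk RNA, fewer cells of a type and less RNA per cell cannot be told apart. Kidney tubule markers were near absent, with 3 of 6 in the table and Lrp2, also read in other epithelia, as the 1 tested and higher.

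Reads of close paralogs limit single values. As a measure, the share of 50-base runs in a gene's GENCODE M21 transcripts that also occur in transcripts of another gene was at least 20% for 17 of the 67 members. It was 37.2% for Cyp2d11, 35.8% for Cyp2d10, 29.8% for Cyp4a10, 26.8% for Cyp3a25 and 43.8% for Cyp4a32. It was 3.87% for Cyp2e1, 6.73% for Cyp3a11, 9.49% for Cyp2d26 and 8.70% for Cyp2b10. How the authors counted reads that fit several genes is not given in the sources used here.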

How the data were processed

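RNA of 6 mouse liver samples was compared, 3 labelled WT and 3 labelled Mdr2 knockout. The authors deposited whole-number read counts per gene symbol without normalization, and FPKM for the same genes. The submitters' processing notes name SAMtools, StringTie, HTSeq, Trimmomatic, DESeq, HISAT2, Cufflinks and Bowtie2, and build mm10. Roles, versions, annotation and strand setting: not given in the sources used here. Therefore reads of overlapping genes cannot be told apart. Over 9534 well-counted genes the deposited FPKM were proportional to counts divided by the library total. All columns of the count table were mapped to a sample.

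The main test was edgeR 4.0.16 in R 4.3.3: filterByExpr (minimum count 10, minimum total 15), TMM factors, a robust quasi-likelihood fit with group as the only term over the whole table, and Benjamini-Hochberg adjustment over all tested genes (threshold 0.05). SE were derived from the fold change and its F statistic. Library totals were 17100393 to 18124467, and 3 counts in a library equal 0.149 to 0.192 CPM. Counting intervals cover counting error only, and ratios with 3 counts in place of 0 leave out the error of the knockout count. No 2 libraries of a group agreed within sampling noise (the lowest chi-square was 16.04 per degree of freedom). The fit was tested on simulated data. Alternatives were limma-voom (limma 3.58.1), DESeq2 1.42.0, scaling by total counts, RLE or upper quartile, no filter, a filter at 1 CPM in 3 libraries, a replicate block and leaving out each library.

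Values in every library were printed by rule: the 2 members of each family block with the highest mean FPKM, the 8 called members highest and the 8 lowest in fold change among those with a mean of at least 1 CPM, all tested Cyp1 and Cyp3 members, and members of the sex-biased and zonation lists. Other members with values in every library, and Nr1i3, Nr1i2, Ppara, Ahr, Alas1, Por, Acot1, Fabp1 and Glul, were chosen after their values were seen. Members and gene lists were chosen with earlier results of these data known.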

Additional observations from a re-analysis of the deposited data

How the results depend on the processing

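Over the 14 alternatives, 13 of the 19 named members that were called kept their call and direction, Cyp2e1, Cyp3a11, Cyp2d10, Cyp2d26, Cyp2d40 and Cyp26a1 among them, and no called member changed direction. Named members were chosen in part for large fold changes. Over all called members, 6 of the 8 higher and 9 of the 16 lower kept their call in every alternative that tested them. Of the 11 named members that were tested and not called, 6 passed under no alternative. Against 8 higher and 16 lower members, total counts gave 12 and 10, beside 47.1% and 2.62% of all tested genes. Per family, total counts gave 4 higher Cyp2 members in place of 2 and 0 lower Cyp4 members in place of 3, DESeq2 gave 5 lower Cyp4 members, and the filter at 1 CPM left 1 higher Cyp2 member. With any 1 library left out, higher members numbered 7 to 10 and lower ones 13 to 16. Over the same fits higher Cyp2 members ranged from 1 to 3, lower Cyp2 members from 7 to 9, higher Cyp4 members from 3 to 4 and lower Cyp4 members from 2 to 5. The groups share replicate numbers, but same-numbered libraries did not deviate together (correlations of 0.08, 0.04 and -0.08), so the numbers were not taken as pairs. With the replicate block, 7 members were higher and 17 lower: Cyp4a12b lost its call (adjusted p = 0.0644) and Cyp39a1 gained one (adjusted p = 0.000965). Members under about 1 CPM rest on few counts, and changes of such members were measured with the least precision.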
